A study of Mus musculus with 38 samples.

Results

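Endothelial cells (ECs) of the mouse heart were compared between animals that had received empagliflozin (EMPA, a sodium-glucose cotransporter 2 inhibitor) before an acute myocardial infarction and animals with a sham operation. The comparison used 9 of the 38 RNA sequencing libraries of the series, chosen by their labels: 5 EC libraries labelled EMPA IR, the EMPA–Pre-AMI group, and 4 labelled SHAM. All groups were male C57BL/6 mice of 8 to 12 weeks with no engineered allele, and each library came from 2 pooled hearts. Sham mice received the vehicle, DMSO in saline, by mouth for 6 weeks and had the chest opened without ischemia. EMPA–Pre-AMI mice received EMPA at 10 mg/kg/d in the same vehicle for 6 weeks, then 30 min of ischemia by ligation of the left anterior descending artery and 2 h of reperfusion. The other 4 EC libraries, Control-AMI, had the vehicle with the same ischemia and reperfusion, and is given beside the results where its level bears on them. The drug and the infarction both separate EMPA–Pre-AMI from Sham, so their parts in a difference cannot be told apart in this comparison. ECs of all groups were freed by perfusion of the heart with digestive enzymes and sorted as CD45- CD31+ cells.

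ECs line every vessel of the heart, and the capillary EC is their most common kind. During reperfusion they are exposed to oxidants, to cytokines of the acute phase and to glucocorticoids released by surgical stress, and they pass these signals on by releasing interleukin-6 and chemokines and by presenting selectins and adhesion molecules to leukocytes. Resting ECs are held in a quiet state by laminar flow, which sustains the transcription factor Klf2, and by lineage factors such as Erg, Fli1, Hhex and the Sox17 group. Metallothioneins, which bind zinc, are among the classical genes induced by metals, glucocorticoids and interleukin-6.

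Totals per library were 1352514 to 2060838 counts in Sham and 1623066 to 1943547 in EMPA–Pre-AMI, and levels are given as CPM (the count of a gene scaled to library size and corrected for composition). Because reads of these 3′ libraries come from the end of each transcript, levels of one gene were compared between libraries and not between genes. The labels carry a sample-sheet list number whose meaning is not stated: Sham replicates 2 to 4 and EMPA–Pre-AMI replicates 1 to 3 are in list 2, and the other 3 libraries in list 3. Nothing in the labels says which libraries share an animal or a day, and p-values measure the spread between these libraries, which may be partly technical. Mitochondrially encoded genes took 5.16% to 7.67% of the counts in Sham and 4.55% to 9% in EMPA–Pre-AMI.

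The sorted identity was visible in both groups. The 12 markers of ECs summed to 14490 to 15960 CPM in Sham and 10640 to 15110 CPM in EMPA–Pre-AMI, where replicate 2 was the lowest and the other 4 libraries were at 13240 CPM or more. Pecam1, the CD31 used for sorting, was at 1858, 2057, 1822 and 1779 CPM in Sham and 2159, 2175, 2075, 1888 and 1678 CPM in EMPA–Pre-AMI, and the groups overlapped. None of the 12 EC markers was called at an adjusted p below 0.05 by edgeR (3 of 12 at an unadjusted p below 0.05, none by DESeq2). Fibroblast markers, a list of 14 genes with 12 tested, summed to 861.9 to 2552 CPM in Sham and 792.1 to 1544 CPM in EMPA–Pre-AMI, against 3533 to 15100 CPM in Control-AMI. The 2 groups compared here therefore overlapped in fibroblast RNA, with none of 12 markers called by edgeR or DESeq2 and none at an unadjusted p below 0.05. Of the 12, 11 had a log2 fold change from Sham below 0, with a median of -0.33.

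Markers of other cells differed in part between the groups. Red cell and platelet genes summed to 31.85 to 192.2 CPM in Sham and 320.3 to 1331 CPM in EMPA–Pre-AMI, without overlap. By edgeR 1 of the 8 tested, Hba-a1, was called higher, against 2.08% of all genes. In that list 5 had an unadjusted p below 0.05, and DESeq2 called 4, Hba-a1, Hba-a2, Hbb-bs and Hbb-bt. Ptprc, which marks leukocytes as CD45, was at 0 to 3 counts in every Sham library and 1 to 12 in EMPA–Pre-AMI, and the leukocyte list summed to 8.76 to 40.7 and 18.92 to 135.3 CPM. Cardiomyocyte genes summed to 474 to 1843 CPM in Sham, where replicate 3 was the highest, and 331.9 to 818.1 CPM in EMPA–Pre-AMI, and mural cell genes to 667.7 to 1104 and 307.6 to 827.1 CPM. EMPA–Pre-AMI replicate 2 stood apart in its endothelial make-up: lymphatic markers were at 1718 CPM in it and at 365.1 to 657.1 CPM in the other 4 libraries of its group, and venous markers at 2302 against 877 to 1314 CPM. None of the tested leukocyte, cardiomyocyte, mural, lymphatic or endocardial markers was called by edgeR or DESeq2 (at an unadjusted p below 0.05, 2 of 5, 3 of 9, 1 of 10, 0 of 7 and 1 of 6). The exceptions by edgeR were Ryr2, a cardiomyocyte gene, without Control-AMI replicate 2 (adjusted p = 0.0461) and Prox1, a lymphatic gene, without EMPA–Pre-AMI replicate 2 (0.0107), both lower. All 9 cardiomyocyte, 10 mural and 6 endocardial markers tested had a log2 fold change from Sham below 0. Their medians were -0.98, -0.64 and -0.31. Of the 5 leukocyte and 7 lymphatic markers tested, 3 and 4 were above 0. The part of these differences in genes that fell was not tested. In these bulk libraries, fewer cells of a type and less RNA per cell cannot be told apart.

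**Figure D1:**
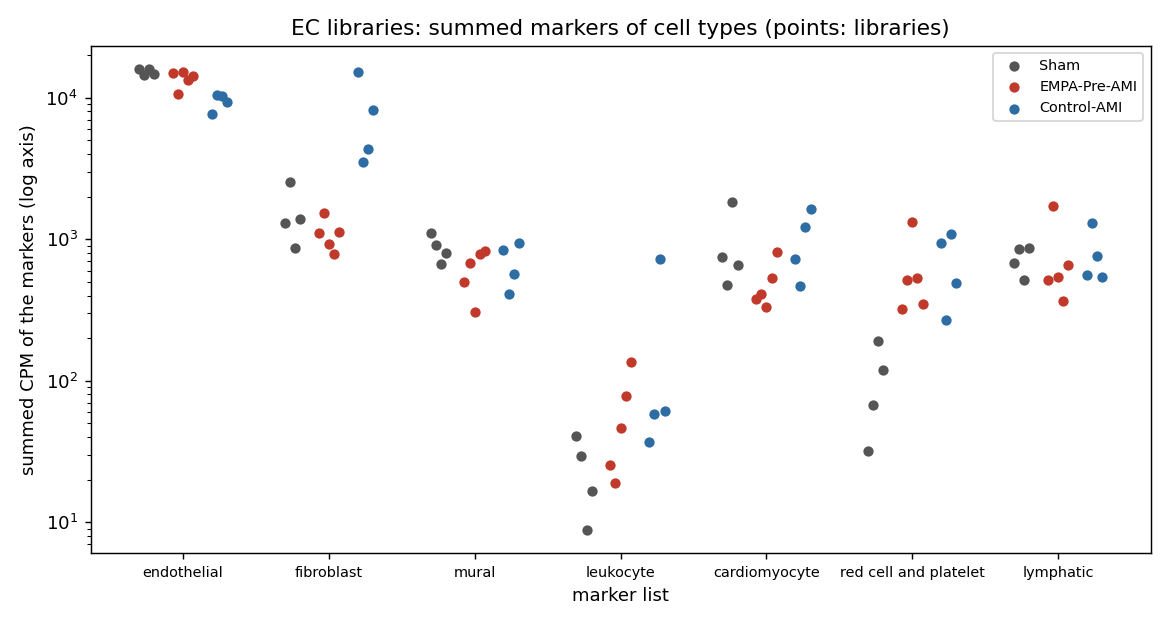
Summed marker levels of 7 cell types in the 13 EC libraries, in CPM on a log axis, with one point per library. Fibroblast markers of the EMPA–Pre-AMI libraries (792.1 to 1544 CPM) lie among those of Sham, while red cell and platelet markers (320.3 to 1331 CPM) lie above all Sham libraries.

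Of 10438 genes tested, 283 differed between EMPA–Pre-AMI and Sham at an adjusted p below 0.05 by edgeR's quasi-likelihood test with Benjamini-Hochberg adjustment, which is 2.71% of those tested. Most of them rose: 217 genes (2.08%) were higher and 66 (0.632%) lower, with median log2 fold changes of 1.11 and -1, against -0.01 over all genes. At 2-fold or more there were 131 higher and 33 lower. The libraries of the 2 groups did not overlap for 260 of the 283, against 685 (6.56%) of all genes tested. The largest rises and falls named below were taken only from called genes without overlap. For those genes the lack of overlap is no further result. The lowest adjusted p belonged to Csrnp1, an immediate early nuclear protein induced by axin, which was chosen for mention after its values were seen. It was at 24.8, 25.7, 15.1 and 23.6 CPM in Sham and 139, 109.8, 97.3, 97 and 99.3 CPM in EMPA–Pre-AMI. All 5 EMPA–Pre-AMI libraries were above the 4 Sham libraries, and the difference was 2.29 ± 0.22 (adjusted p = 4.49e-06). Differences are given throughout as log2 fold changes ± SE, EMPA–Pre-AMI relative to Sham unless another pair is named. The count of called genes fell to 188, 159 and 170 without Sham replicate 2, 3 or 4, and was 351 without Sham replicate 1. The count of lower genes was 41, 33 and 39 without Sham replicate 2, 3 or 4, and 39 and 42 without EMPA–Pre-AMI replicate 4 or 5. Within sample-sheet list 2 alone (3 libraries in each group), 191 genes were called, of which 146 were among the 283, and all 283 kept their direction.

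**Figure D2:**
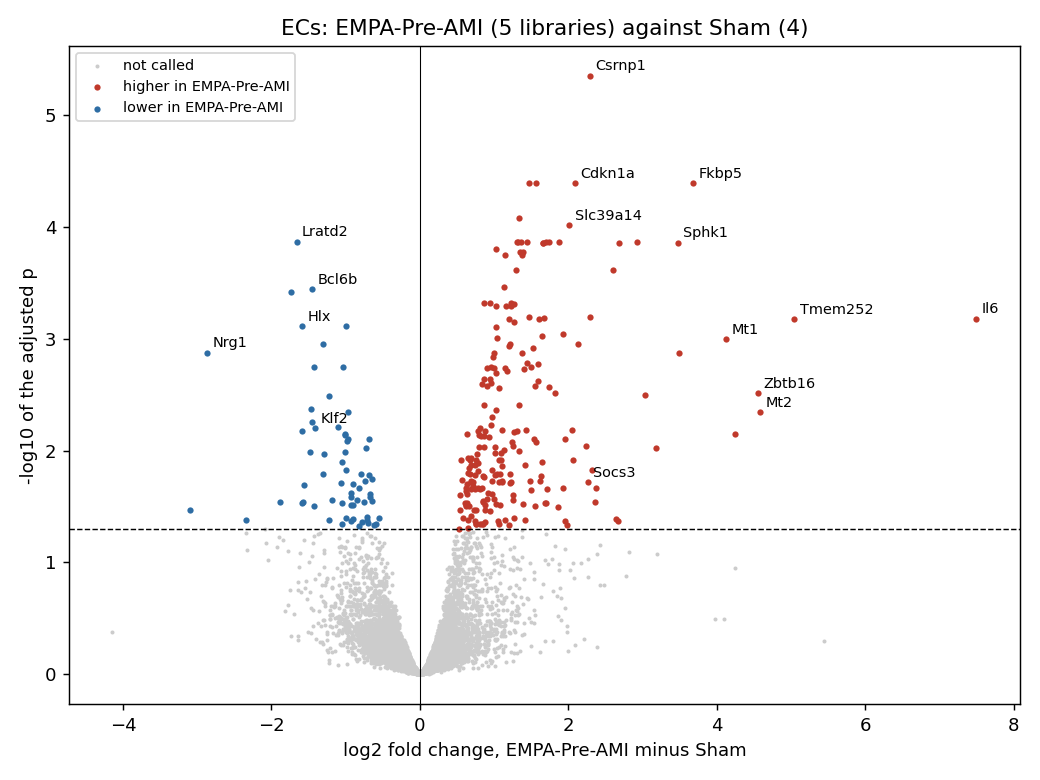
Log2 fold change of EMPA–Pre-AMI against Sham in ECs (horizontal axis) and -log10 of the adjusted p (vertical axis) for the 10438 genes tested, one point per gene, with the dashed line at 0.05. Above the line lie 217 genes on the right and 66 on the left. Il6 had no count in Sham, and its place on the horizontal axis is a fitted value, not a bound.

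A list of the interleukin-6 family, receptors, signaling partners and feedback inhibitors had 16 tested genes, among them Il1r1, the receptor of interleukin-1. Of the 16, 7, with Il1r1 among them, were called higher and none lower, against 2.08% of all genes called higher. Lists and their members were chosen with earlier results of these data known. Counts and medians of lists, here and elsewhere, are therefore set beside those of all genes as description only. Il6ra, Il6st, Lifr, Jak1, Jak2, Tyk2, Socs1 and Pim1 were among the members not called. The median log2 fold change of the list was 0.58 against -0.01 over all genes. That median is the same with Il6 set at its lower bound. The count was 4 without Sham replicate 3 or 4.

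Il6, the cytokine itself (ENSMUSG00000025746, chr5:30218112-30224979, + strand, GRCm39), had no count in any Sham library. Its level was 8.61, 24.3, 5.09, 18.5 and 6.58 CPM in the 5 EMPA–Pre-AMI libraries and 5.44, 25.7, 16 and 13.1 CPM in Control-AMI. Set against 3 counts in the smallest Sham library, Il6 was at least 6.07-fold higher in EMPA–Pre-AMI (adjusted p = 0.000661). The feedback inhibitors of the SOCS family, Socs3 and Cish among them, are direct targets of activated STAT proteins. Socs3 was at 33, 60.4, 20.4 and 36.8 CPM in Sham and 110.3, 272, 123, 219 and 182 CPM in EMPA–Pre-AMI, and Cish at 26, 29, 31.1 and 38.9 CPM in Sham and 69.4, 73.5, 69.5, 82.8 and 62.8 CPM in EMPA–Pre-AMI. Neither gene overlapped between the groups, and the differences were 2.26 ± 0.45 (adjusted p = 0.0192) for Socs3 and 1.20 ± 0.19 (adjusted p = 0.000661) for Cish. Socs2, another member, was at 179, 265, 284 and 271 CPM in Sham and 420.4, 536, 445, 500.4 and 440.5 CPM in EMPA–Pre-AMI, a difference of 0.91 ± 0.16 (adjusted p = 0.00183). Stat3, the transcription factor downstream of the shared receptor chain, was at 323, 344, 353 and 356 CPM in Sham and 503, 583, 436, 710.5 and 533 CPM in EMPA–Pre-AMI. The highest Sham library of Stat3 was below the lowest EMPA–Pre-AMI library, with a difference of 0.68 ± 0.16 (adjusted p = 0.0188). On the receptor side, Osmr, which binds oncostatin M, was at 46.6, 65.1, 57.4 and 63.2 CPM in Sham and 118, 155, 92.2, 156 and 106 CPM in EMPA–Pre-AMI (1.11 ± 0.25, adjusted p = 0.0191), and Il1r1, the receptor of interleukin-1, at 90.8, 79.4, 74 and 75 CPM in Sham and 157, 212, 165, 123 and 113 CPM in EMPA–Pre-AMI (0.95 ± 0.17, adjusted p = 0.00232). All 7 called genes had every EMPA–Pre-AMI library above every Sham library. Socs3 had an adjusted p of 0.0554 to 0.0671 without Sham replicate 1, 3 or 4 and 0.0995 within sample-sheet list 2. Stat3 had an adjusted p of 0.0621 to 0.0731 without Sham replicate 2, 3 or 4 or EMPA–Pre-AMI replicate 4 and 0.109 within sample-sheet list 2. Osmr had an adjusted p of 0.0518 to 0.0731 without Sham replicate 1, 2, 3 or 4 or EMPA–Pre-AMI replicate 4 and 0.0851 within sample-sheet list 2.

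**Figure D3:**
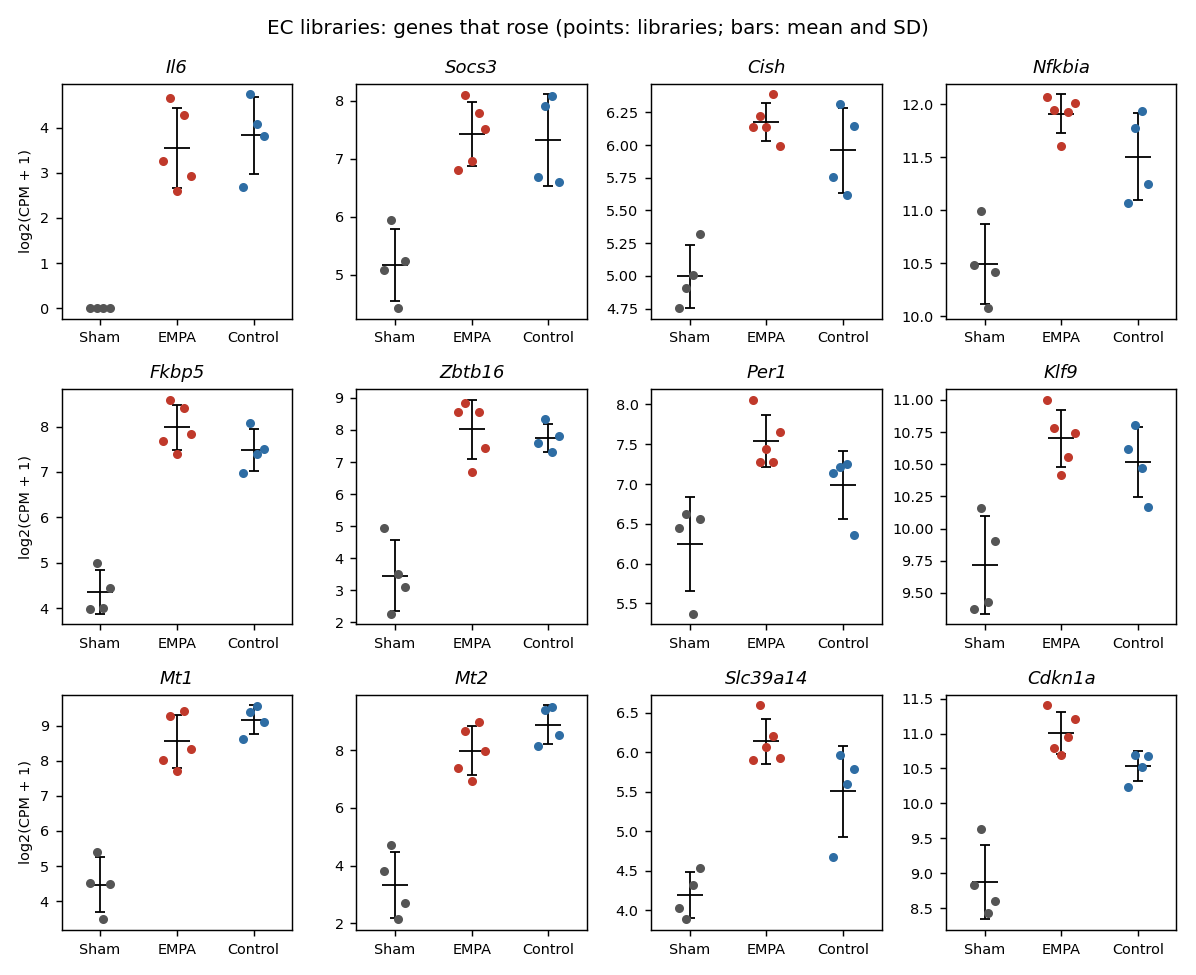
Levels of 12 genes that rose, as log2(CPM + 1) in each EC library, in Sham (4 libraries), EMPA–Pre-AMI (5) and Control-AMI (4), with bars for the mean and SD. In every panel the 5 EMPA–Pre-AMI points lie above the 4 Sham points, and Il6 was at 0 in each Sham library.

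The NF-kappaB list moved in few members. Of 18 tested, 2 were called higher (against 2.08% of all genes) and none lower, with a median log2 fold change of 0.23 against -0.01 over all genes. Nfkbia encodes the inhibitor that holds NF-kappaB in the cytoplasm and is re-made after NF-kappaB activation. It was at 1429, 2037, 1077 and 1369 CPM in Sham and 4299, 3942, 3110, 3895 and 4119 CPM in EMPA–Pre-AMI, and its lowest EMPA–Pre-AMI library was above the highest Sham library, with a difference of 1.39 ± 0.20 (adjusted p = 0.000167). Birc3, an inhibitor of apoptosis and an NF-kappaB target, was at 10.6, 17.1, 28.2 and 20.8 CPM in Sham and 40.9, 50.3, 51.5, 48.8 and 47.3 CPM in EMPA–Pre-AMI, also without overlap (1.30 ± 0.27, adjusted p = 0.00675). The subunit Rela was at 125, 134, 109 and 133 CPM in Sham and 120, 131, 146, 168 and 131 CPM in EMPA–Pre-AMI (difference 0.16 ± 0.16, adjusted p = 0.719), and the feedback inhibitor Tnfaip3 at 3.54, 2.85, 4.38 and 5.55 CPM in Sham and 3.77, 5.95, 3.39, 11.7 and 5.39 CPM in EMPA–Pre-AMI (0.57 ± 0.58, adjusted p = 0.715). Neither passed the test.

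Among 10 chemokines and scavengers tested, 1 was called higher, against 2.08% of all genes. The list median was 0.60, the same with Cxcl10 at its lower bound. Cxcl10, a chemokine that draws T cells, was at 1.18, 0.475, 1.46 and 0.694 CPM in Sham and 4.84, 10.8, 6.22, 8.65 and 1.2 CPM in EMPA–Pre-AMI. All Sham libraries held 3 counts or fewer of it, and 1 EMPA–Pre-AMI library overlapped them. Set against 3 counts in the smallest Sham library, the mean of EMPA–Pre-AMI was at least 3.05-fold higher (adjusted p = 0.0411). Cxcl10 had an adjusted p of 0.0512 to 0.145 without Sham replicate 1, 2, 3 or 4, EMPA–Pre-AMI replicate 1, 2, 3 or 4 or Control-AMI replicate 3 or 4 and 0.0595 within sample-sheet list 2.

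Leukocyte adhesion molecules were not called by edgeR in any of 12 tested, with a list median of 0.23; 3 had an unadjusted p below 0.05 and 1, Selp, was called by DESeq2. Selp, the P-selectin on which leukocytes begin to roll, was at 15.9, 14.3, 11.7 and 18.1 CPM in Sham and 51.1, 278, 59.9, 234 and 59.2 CPM in EMPA–Pre-AMI. Its groups did not overlap, yet EMPA–Pre-AMI replicates 2 and 4 were far above the other 3, and the difference was 3.19 ± 0.84 (adjusted p = 0.0845). Its adjusted p was 0.000358 by DESeq2, 0.00761 without robust estimation and 0.0472 without Control-AMI replicate 2. Sele, E-selectin, was at 7.08, 5.23, 0.487 and 3.47 CPM in Sham and 3.77, 38.9, 6.22, 23.5 and 7.78 CPM in EMPA–Pre-AMI, and Icam1, the firm-adhesion ligand, at 123, 164, 89.1 and 95.8 CPM in Sham and 134, 204, 134, 270 and 148 CPM in EMPA–Pre-AMI. Both overlapped between the groups, with differences of 1.98 ± 0.93 (adjusted p = 0.366) and 0.59 ± 0.27 (adjusted p = 0.337). Vcam1 was at 177, 336, 160.1 and 221 CPM in Sham and 118, 366, 115, 219 and 129 CPM in EMPA–Pre-AMI (-0.24 ± 0.45, adjusted p = 0.867).

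The windows before the start sites of 3 of the genes that rose are shown because they hold the letters of an NF-kappaB site. Each is the 250 bases upstream of the RefSeq start, 5′ to 3′ on the strand of the gene, placed by exact match in GRCm39, with the matches in capitals. The Il6 window is chr5:30217862-30218111, + strand, that of Nfkbia chr12:55539433-55539682, - strand and that of Cxcl10 chr5:92496749-92496998, - strand.
Il6: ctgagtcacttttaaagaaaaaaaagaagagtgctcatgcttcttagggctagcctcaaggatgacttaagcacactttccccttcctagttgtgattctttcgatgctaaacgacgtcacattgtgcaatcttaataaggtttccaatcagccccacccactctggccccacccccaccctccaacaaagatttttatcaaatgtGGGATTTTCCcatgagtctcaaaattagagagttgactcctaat
Nfkbia: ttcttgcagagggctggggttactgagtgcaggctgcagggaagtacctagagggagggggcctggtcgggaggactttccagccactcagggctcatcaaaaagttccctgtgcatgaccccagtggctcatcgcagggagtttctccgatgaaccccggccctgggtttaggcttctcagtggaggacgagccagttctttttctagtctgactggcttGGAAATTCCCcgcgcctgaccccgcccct
Cxcl10: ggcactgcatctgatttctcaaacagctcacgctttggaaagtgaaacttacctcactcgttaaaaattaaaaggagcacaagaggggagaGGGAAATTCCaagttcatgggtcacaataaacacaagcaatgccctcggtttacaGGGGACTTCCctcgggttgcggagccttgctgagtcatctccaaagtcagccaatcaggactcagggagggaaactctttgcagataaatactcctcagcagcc
The letters searched on both strands were GGGNNTTCC and the NF-kappaB site with 1 more base at its centre. The second form was added after the windows were seen. The match in Il6 ends 34 bases before the start and that in Nfkbia 19 bases before it, and the 3 matches in Cxcl10, of which 2 overlap, form 2 stretches. Of all 27025 symbols with a RefSeq window, 9.33% hold a match of either form in at least one window, as do 11.7% of the 8052 genes tested here that have a window, 15.2% of the 178 called higher and 17% of the 47 called lower. With the first form alone these shares are 5.61%, 7.56%, 11.8% and 10.6%. The letters of an AP-1 site, TGANTCA, occur in 7.82% of all, 5.27% of tested, 15.2% of called higher and 6.38% of called lower genes. Overlaps between matches of the 2 motifs were not counted, and the shares were not tested. The window of Birc3 holds no match of either NF-kappaB form, nor do those of Selp, Icam1 and Sele. In the windows shown, only NF-kappaB letters are in capitals, and AP-1 letters are not marked.

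Of 14 tested genes in a glucocorticoid-responsive list, 5 were called higher and none lower, against 2.08% of all genes called higher. By DESeq2 6 were called. The median log2 fold change of the list was 1.00. The count was 3 without Sham replicate 3 and ranged from 3 to 6 over all fits that left out 1 library. Fkbp5 (ENSMUSG00000024222, chr17:28618058-28737521, - strand), a co-chaperone that binds the glucocorticoid receptor and is one of its most responsive targets, was at 14.8, 30.9, 15.1 and 20.8 CPM in Sham and 206, 384, 167, 337 and 229 CPM in EMPA–Pre-AMI. The lowest EMPA–Pre-AMI library was above 5 times the highest Sham library, and the difference was 3.68 ± 0.33 (adjusted p = 4.1e-05). Zbtb16, a zinc finger repressor that follows receptor activation, was at 29.5, 3.8, 10.2 and 7.63 CPM in Sham and 377, 457, 102, 381 and 174 CPM in EMPA–Pre-AMI. Sham replicate 1 was the highest of its group and still below all EMPA–Pre-AMI libraries, with a difference of 4.56 ± 0.64 (adjusted p = 0.00308). Per1, a clock gene with a glucocorticoid response element, was at 86.1, 97.5, 40.4 and 93.7 CPM in Sham and 265, 154, 172, 154 and 200.5 CPM in EMPA–Pre-AMI (1.26 ± 0.25, adjusted p = 0.00906).

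Other members of this list respond to several stresses. Ddit4, an inhibitor of mTOR signaling, was at 108, 408, 116 and 116 CPM in Sham and 1452, 856, 849, 679.6 and 826 CPM in EMPA–Pre-AMI. Sham replicate 2 was more than 3 times the other Sham libraries, and EMPA–Pre-AMI replicate 1 was the highest of all, with a difference of 2.31 ± 0.43 (adjusted p = 0.0148). Cebpd, a transcription factor of the acute phase, was at 58.4, 133, 42.8 and 50.7 CPM in Sham and 204, 407, 182, 375 and 199.9 CPM in EMPA–Pre-AMI (1.93 ± 0.39, adjusted p = 0.0214). Tsc22d3, the leucine zipper protein GILZ, was at 75.5, 167, 88.6 and 117 CPM in Sham and 229, 297, 161, 207 and 194 CPM in EMPA–Pre-AMI, overlapped by 1 library and did not pass the test (0.95 ± 0.27, adjusted p = 0.0813). It was called by DESeq2 (adjusted p = 0.0118), with only the 2 groups fitted (0.0272), with the list number as a term (0.0414) and without Sham replicate 2 (0.0225) or Control-AMI replicate 2 (0.0212). Per1 had an adjusted p of 0.0657 within sample-sheet list 2. Ddit4 had an adjusted p of 0.052 without Sham replicate 3, 0.0574 with only the 2 groups fitted and 0.145 within sample-sheet list 2. Cebpd had an adjusted p of 0.0503 to 0.0725 without Sham replicate 1, 3 or 4 or EMPA–Pre-AMI replicate 4, 0.0574 with only the 2 groups fitted and 0.201 within sample-sheet list 2.

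Kruppel-like factors split. Of 10 tested, 3 were called higher and 1 lower, against 2.08% and 0.632% of all genes, with a median of 0.03. Klf9, a glucocorticoid target, was at 664, 1141, 687 and 956 CPM in Sham and 2048, 1760, 1367, 1508 and 1711 CPM in EMPA–Pre-AMI, without overlap (0.96 ± 0.18, adjusted p = 0.00247). Klf15, known for its rhythmic control of metabolism, was low in Sham, at 1.77, 2.85, 1.95 and 5.55 CPM, and at 10.2, 11.9, 10.2, 12.4 and 13.2 CPM in EMPA–Pre-AMI (1.95 ± 0.41, adjusted p = 0.00786). Klf13 was at 450.1, 512, 376 and 366 CPM in Sham and 718, 517, 609, 761 and 803 CPM in EMPA–Pre-AMI (0.68 ± 0.15, adjusted p = 0.0122). Klf2 (ENSMUSG00000055148, chr8:73072726-73075502, + strand), the factor that laminar flow sustains in ECs, moved the other way. It was at 1054, 1760, 1450 and 1887 CPM in Sham and 863, 493, 496, 350.3 and 686 CPM in EMPA–Pre-AMI, with every EMPA–Pre-AMI library below every Sham library (-1.41 ± 0.26, adjusted p = 0.00631). Its relative Klf4 was at 2345, 2879, 2057 and 2275 CPM in Sham and 1844, 2144, 1001, 1005 and 1624 CPM in EMPA–Pre-AMI, and 1 EMPA–Pre-AMI library overlapped the Sham range (-0.65 ± 0.26, adjusted p = 0.248). Klf15 had an adjusted p of 0.103 within sample-sheet list 2. Klf13 had an adjusted p of 0.0717 to 0.0747 without Sham replicate 3 or 4 and 0.109 within sample-sheet list 2.

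The metallothionein genes Mt1 and Mt2 were among the 12 largest rises. Of 9 genes of metallothioneins and of zinc and copper handling that were tested, 3 were called higher, against 2.08% of all genes, and none lower. The list median was 0.05, and the other 6 tested members did not pass the test. Mt1 (ENSMUSG00000031765, chr8:94905710-94906955, + strand) was at 21.8, 40.9, 10.2 and 21.5 CPM in Sham and 260.5, 613, 209, 681 and 319 CPM in EMPA–Pre-AMI, and Mt2 (ENSMUSG00000031762, chr8:94898819-94900207, + strand), its neighbour on chromosome 8, at 13, 25.2, 3.41 and 5.55 CPM in Sham and 166, 406, 122, 512 and 249 CPM in EMPA–Pre-AMI. The lowest EMPA–Pre-AMI library was above the highest Sham library for both, as the rule for the largest rises required. EMPA–Pre-AMI replicates 2 and 4 were the highest of their group for both genes. Their differences were 4.13 ± 0.50 (adjusted p = 0.00101) and 4.58 ± 0.68 (adjusted p = 0.00455). The coding parts of Mt1 and Mt2 are similar, and how the authors' counting shared reads between them was not tested. Slc39a14, a zinc importer that interleukin-6 induces in the liver, was at 15.3, 13.8, 19 and 22.2 CPM in Sham and 58.7, 95.7, 66.2, 72.9 and 59.9 CPM in EMPA–Pre-AMI (2.01 ± 0.26, adjusted p = 9.65e-05). Mt1 had an adjusted p of 0.056 within sample-sheet list 2. Mt2 had an adjusted p of 0.0851 within sample-sheet list 2. The core letters of a metal response element (TGCGCNC or TGCACNC, both strands) occur in the RefSeq windows of both Mt1 and Mt2 and in 23.8% of all symbols, 35% of tested genes and 34.8% of those called higher.

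Genes of growth arrest had 3 of 13 tested members called higher, against 2.08% of all genes, and none lower, with a median of 0.40. The count was 1 without Sham replicate 3 or without EMPA–Pre-AMI replicate 1. Cdkn1a, the cyclin-dependent kinase inhibitor p21, was at 454, 790.1, 346 and 387 CPM in Sham and 2707, 1765, 1648, 1981 and 2373 CPM in EMPA–Pre-AMI. All 5 EMPA–Pre-AMI libraries were more than 2 times the highest Sham library, and the difference was 2.08 ± 0.22 (adjusted p = 4.1e-05). Sesn1, a stress-induced regulator of mTOR, was at 13.6, 16.2, 16.6 and 15.3 CPM in Sham and 44.1, 28.1, 23.8, 30.9 and 35.3 CPM in EMPA–Pre-AMI (1.07 ± 0.25, adjusted p = 0.0192), and Trp53inp1, a p53 partner, at 17.7, 26.6, 17 and 24.3 CPM in Sham and 60.3, 51.4, 28.8, 44.5 and 40.7 CPM in EMPA–Pre-AMI (1.08 ± 0.25, adjusted p = 0.0162). Neither overlapped between the groups. Sesn1 had an adjusted p of 0.0567 to 0.0701 without Sham replicate 2, 3 or 4 or EMPA–Pre-AMI replicate 1 and 0.103 within sample-sheet list 2. Trp53inp1 had an adjusted p of 0.0548 to 0.0836 without Sham replicate 3 or EMPA–Pre-AMI replicate 1 and 0.0891 within sample-sheet list 2.

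Hypoxia-inducible genes gave 3 of 19 called higher, against 2.08% of all genes, and none lower, with a median of 0.17. Bhlhe40, a repressor of the clock, was at 70.2, 53.7, 47.2 and 56.2 CPM in Sham and 136, 209.8, 148, 190.3 and 158 CPM in EMPA–Pre-AMI (1.57 ± 0.18, adjusted p = 4.1e-05). Bnip3, a mitophagy receptor, was at 26.6, 49, 35 and 27.8 CPM in Sham and 104, 137, 65, 168 and 108 CPM in EMPA–Pre-AMI (1.74 ± 0.30, adjusted p = 0.0027), and the glycolytic activator Pfkfb3 at 51.3, 38, 22.4 and 57.6 CPM in Sham and 123, 279, 139.7, 364 and 179 CPM in EMPA–Pre-AMI (2.37 ± 0.47, adjusted p = 0.0214). These 3 did not overlap between the groups. Vegfa, the best known hypoxia target, was at 59, 36.1, 33.6 and 37.5 CPM in Sham and 39.3, 88.1, 17, 51.3 and 34.7 CPM in EMPA–Pre-AMI and did not pass the test (0.15 ± 0.33, adjusted p = 0.884). Pfkfb3 had an adjusted p of 0.0516 to 0.0776 without Sham replicate 2 or 3 or EMPA–Pre-AMI replicate 2 and 0.0924 within sample-sheet list 2.

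Oxidant defence genes, a list of NRF2 targets and their relatives, gave 4 of 13 called higher, against 2.08% of all genes, and none lower, with a median of 0.14. Txnrd1, thioredoxin reductase, was at 90.3, 51.8, 60.3 and 59 CPM in Sham and 115, 299, 171, 262 and 163 CPM in EMPA–Pre-AMI (1.63 ± 0.33, adjusted p = 0.017). Txnip, which binds and inhibits thioredoxin and is no NRF2 target, was within 565 to 598 CPM in Sham and at 1350, 822, 779, 822 and 1256 CPM in EMPA–Pre-AMI (0.78 ± 0.18, adjusted p = 0.013). Osgin1, an oxidant-induced growth inhibitor, ranged from 4.87 to 12.8 CPM in Sham and from 14.1 to 37.1 CPM in EMPA–Pre-AMI (1.49 ± 0.36, adjusted p = 0.0227), and Gclc, which limits glutathione synthesis, from 31.3 to 37.5 and 45.8 to 119 CPM (1.20 ± 0.31, adjusted p = 0.0462). None of the 4 overlapped between the groups. The count was 2 without Sham replicate 2 or EMPA–Pre-AMI replicate 4, 1 without Sham replicate 3 and 0 without Sham replicate 4, a fit that leaves 3 Sham libraries. Txnip had an adjusted p of 0.0557 without Sham replicate 4 and 0.0666 within sample-sheet list 2. Txnrd1 had an adjusted p of 0.0658 to 0.0708 without Sham replicate 2, 3 or 4 and 0.0657 within sample-sheet list 2. Osgin1 had an adjusted p of 0.0826 to 0.114 without Sham replicate 3 or 4 or EMPA–Pre-AMI replicate 4 and 0.166 within sample-sheet list 2. Gclc had an adjusted p of 0.0669 to 0.145 without Sham replicate 1, 2, 3 or 4, EMPA–Pre-AMI replicate 2 or 4 or Control-AMI replicate 3 or 4, 0.074 with the list number as a term and 0.127 within sample-sheet list 2.

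Other stress lists had 1 or 2 calls each, against 2.08% of all genes called higher and 0.632% called lower. Of 22 immediate early genes 2 were called higher, Fosl2 at 65.7 to 123 CPM in Sham and 144 to 446 CPM in EMPA–Pre-AMI (1.56 ± 0.35, adjusted p = 0.0316) and Maff at 16.1 to 33.6 and 41.8 to 101 CPM (1.44 ± 0.25, adjusted p = 0.00167). The founding members Fos (276 to 670.3 and 262 to 1292 CPM) and Jun (1168 to 2111 and 565 to 1991 CPM) overlapped between the groups, with adjusted p of 0.83 and 0.821. Of 19 heat shock chaperones, Bag3 was called higher (62.3 to 124 and 136 to 272 CPM, 1.05 ± 0.23, adjusted p = 0.0163) and Cryab lower (17.1 to 46.7 and 15.3 to 23.3 CPM, -0.93 ± 0.25, adjusted p = 0.0428). Cryab, a small heat shock protein, is abundant in cardiomyocytes, whose summed markers were highest in Sham replicate 3, at 1843 CPM. The part of cardiomyocyte RNA in its fall was not tested. Of 13 integrated stress response genes 1 was called, Cebpb, a transcription factor of the acute phase, at 2.36, 1.43, 0.487 and 4.86 CPM in Sham and 4.31, 25.9, 12.4, 25.3 and 21.5 CPM in EMPA–Pre-AMI (3.03 ± 0.56, adjusted p = 0.00322). EMPA–Pre-AMI replicate 1 was within the Sham range of Cebpb, and Atf4, the central factor of that response, was not called (0.38 ± 0.37, adjusted p = 0.701). Without Sham replicate 1, which held the highest Atf4 level of its group, the difference was 0.98 and Atf4 was called (adjusted p = 0.0199), and the list count was 2 without Sham replicate 1 or 4 or Control-AMI replicate 2 and 2 by DESeq2. Fosl2 had an adjusted p of 0.0539 to 0.115 without Sham replicate 2, 3 or 4, EMPA–Pre-AMI replicate 2 or Control-AMI replicate 4, 0.0704 without the filter and 0.0674 within sample-sheet list 2. Bag3 had an adjusted p of 0.0591 to 0.0745 without Sham replicate 2, 3 or 4. Cryab had an adjusted p of 0.056 to 0.184 without Sham replicate 2, 3 or 4 or EMPA–Pre-AMI replicate 1, 2, 3, 4 or 5, 0.0508 without robust estimation, 0.0516 with only the 2 groups fitted and 0.0846 with the list number as a term. Cebpb had an adjusted p of 0.0876 within sample-sheet list 2.

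Further genes were among the 12 largest rises. Tmem252, a membrane protein of little known function, was at 0, 1.9, 0.973 and 0.694 CPM in Sham and 24.2, 31.9, 23.2, 68.6 and 20.4 CPM in EMPA–Pre-AMI (5.04 ± 0.70, adjusted p = 0.000667). Sphk1, which makes sphingosine 1-phosphate, a lipid that tightens the endothelial barrier, was at 4.13, 1.43, 0.973 and 0 CPM in Sham and 19.4, 15.1, 20.4, 24.1 and 16.2 CPM in EMPA–Pre-AMI (3.47 ± 0.48, adjusted p = 0.000139). Both were near 0 in Sham and above 15 CPM in every EMPA–Pre-AMI library. F10, clotting factor X, was at 4.13, 1.43, 1.46 and 0.694 CPM in Sham and 22.6, 19.5, 14.7, 36.5 and 19.1 CPM in EMPA–Pre-AMI (3.50 ± 0.56, adjusted p = 0.00134), and Adamts4, a protease of proteoglycans, at 7.67, 14.3, 4.38 and 5.55 CPM in Sham and 33.9, 105, 46.9, 125 and 59.9 CPM in EMPA–Pre-AMI (3.18 ± 0.56, adjusted p = 0.00952). Slc10a6, a carrier of sulfated steroids, was at 5.31, 14.7, 4.87 and 8.33 CPM in Sham and 58.7, 76.8, 41.3, 89.6 and 55.7 CPM in EMPA–Pre-AMI (2.93 ± 0.35, adjusted p = 0.000136). These 3 did not overlap between the groups, as the rule for the largest rises required. Hba-a1, an alpha globin of red cells, was at 1.18, 11.4, 18 and 18.7 CPM in Sham and 57.1, 50.3, 145, 84 and 56.9 CPM in EMPA–Pre-AMI (2.67 ± 0.61, adjusted p = 0.0423), beside the red cell and platelet sums given above. The part of red cells in other rises was not tested. Adamts4 had an adjusted p of 0.111 within sample-sheet list 2. Hba-a1 had an adjusted p of 0.0551 to 0.132 without Sham replicate 2, 3 or 4, EMPA–Pre-AMI replicate 1, 2, 3, 4 or 5 or Control-AMI replicate 1 or 4, 0.0673 without the filter, 0.0591 with the list number as a term and 0.152 within sample-sheet list 2.

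In the clotting and fibrinolysis list 2 of 14 were called higher (against 2.08% of all genes), with a median of 0.10. Plaur, the urokinase receptor, was at 10.6, 2.38, 3.41 and 5.55 CPM in Sham and 15.1, 13, 11.3, 28.4 and 21.5 CPM in EMPA–Pre-AMI (1.72 ± 0.42, adjusted p = 0.0222), and Thbs1, the matrix protein thrombospondin-1, at 11.2, 14.7, 8.76 and 10.4 CPM in Sham and 26.4, 90.8, 23.2, 29 and 35.9 CPM in EMPA–Pre-AMI (1.86 ± 0.43, adjusted p = 0.0319). EMPA–Pre-AMI replicate 2 was more than 2 times any other library of its group for Thbs1. Among 13 metalloproteinases and inhibitors, Timp3, Adamts4 and Adamts9 were called higher (3, against 2.08% of all genes) and none lower, with a median of 0.42. Timp3, the inhibitor that binds to matrix, was at 1613 to 1910 CPM in Sham and 2065 to 3518 CPM in EMPA–Pre-AMI (0.69 ± 0.17, adjusted p = 0.0222), and Adamts9 at 152 to 251 and 288 to 388 CPM (0.85 ± 0.21, adjusted p = 0.0291). The count was 1 without Sham replicate 4 or EMPA–Pre-AMI replicate 1. In the list of caveolae and fatty acid uptake 1 of 16 was called higher, against 2.08% of all genes. This was Lpl, the lipase that acts on the capillary wall, at 588, 971, 931 and 669.8 CPM in Sham and 2619, 1695, 1587, 2466 and 1860 CPM in EMPA–Pre-AMI (1.37 ± 0.19, adjusted p = 0.000179). The count was 3 by DESeq2 and without Control-AMI replicate 1, with Gpihbp1 and Pparg added, and 2 without EMPA–Pre-AMI replicate 2 or Control-AMI replicate 4, with Gpihbp1 added. Plaur had an adjusted p of 0.056 to 0.107 without Sham replicate 2, 3 or 4 or EMPA–Pre-AMI replicate 4 or 5 and 0.0512 within sample-sheet list 2. Thbs1 had an adjusted p of 0.0549 to 0.128 without Sham replicate 1, 2, 3 or 4 or EMPA–Pre-AMI replicate 5, 0.0801 without the filter and 0.164 within sample-sheet list 2. Timp3 had an adjusted p of 0.0775 to 0.0915 without Sham replicate 3 or 4 or EMPA–Pre-AMI replicate 1 and 0.0558 within sample-sheet list 2. Adamts9 had an adjusted p of 0.0537 to 0.135 without Sham replicate 1, 2 or 4 or EMPA–Pre-AMI replicate 1, 2 or 3.

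Transcription factors of the endothelial lineage were the list with the most falls. Of 23 tested, 4 were called lower and 1 higher, against 0.632% and 2.08% of all genes, with a median of -0.34. The count of calls was 3 without Sham replicate 2 or 3 or EMPA–Pre-AMI replicate 5. Bcl6b, an EC repressor, was at 342, 137, 210.2 and 203 CPM in Sham and 58.7, 66.5, 87.7, 92.1 and 102 CPM in EMPA–Pre-AMI (-1.46 ± 0.21, adjusted p = 0.00036). Every EMPA–Pre-AMI library was below every Sham library. Hhex, a homeobox factor of early endothelium, was within 34 to 37.8 CPM in Sham and at 15.6, 27.6, 17, 16.1 and 13.2 CPM in EMPA–Pre-AMI, with replicate 2 the highest (-1.0 ± 0.23, adjusted p = 0.0148). Foxo1, a factor of EC quiescence, was at 178, 219.6, 188 and 208 CPM in Sham and 136, 114, 144, 128 and 96.3 CPM in EMPA–Pre-AMI (-0.68 ± 0.16, adjusted p = 0.0164). Meox2, a capillary factor that controls fatty acid transport, was at 78.5, 109, 137 and 77 CPM in Sham and 63, 44.3, 78, 33.4 and 46.1 CPM in EMPA–Pre-AMI, with 1 library of overlap (-0.92 ± 0.23, adjusted p = 0.0259). Sox17, an arterial factor, was the member that rose, at 67.2, 80.8, 128 and 85.4 CPM in Sham and 231, 116, 188, 171 and 211 CPM in EMPA–Pre-AMI (1.02 ± 0.20, adjusted p = 0.00436). The highest Sham library of Sox17 was above 1 EMPA–Pre-AMI library. The ETS factors Erg (-0.11 ± 0.19, adjusted p = 0.855) and Fli1 (-0.33 ± 0.18, adjusted p = 0.406) did not pass the test. Hhex had an adjusted p of 0.0519 without Sham replicate 3 and 0.155 within sample-sheet list 2. Foxo1 had an adjusted p of 0.054 to 0.0621 without Sham replicate 2 or 4 or EMPA–Pre-AMI replicate 5. Meox2 had an adjusted p of 0.0655 to 0.167 without Sham replicate 2 or 3 or EMPA–Pre-AMI replicate 2, 4 or 5 and 0.0985 within sample-sheet list 2. Sox17 had an adjusted p of 0.0951 within sample-sheet list 2.

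**Figure D4:**
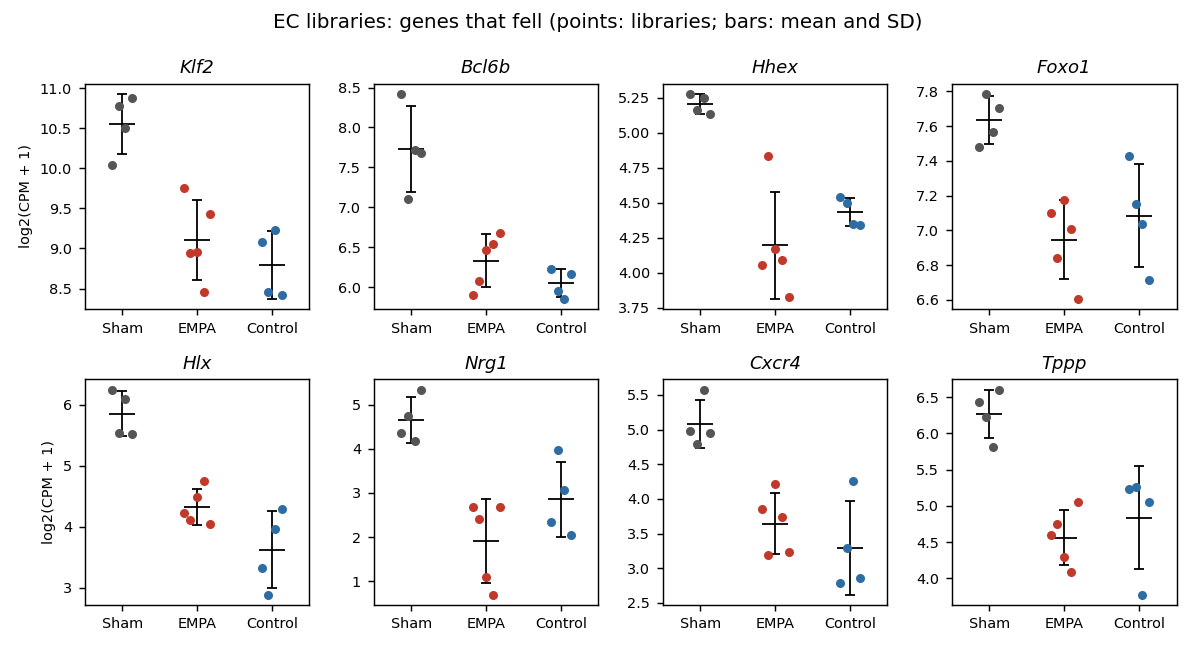
Levels of 8 genes that fell, as log2(CPM + 1) in each EC library of Sham (4), EMPA–Pre-AMI (5) and Control-AMI (4), with bars for the mean and SD. In every panel the EMPA–Pre-AMI points lie below all Sham points.

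Nrg1, neuregulin-1, a growth factor that ECs send to cardiomyocytes, had the largest fall that met the rule for named genes. It was at 19.5, 25.7, 17 and 39.6 CPM in Sham and 5.38, 4.33, 1.13, 0.618 and 5.39 CPM in EMPA–Pre-AMI (-2.87 ± 0.49, adjusted p = 0.00134). Cxcr4, the receptor of the chemokine Cxcl12, was at 30.7, 26.6, 46.7 and 29.9 CPM in Sham and 13.5, 8.11, 17.5, 12.4 and 8.38 CPM in EMPA–Pre-AMI (-1.48 ± 0.32, adjusted p = 0.0103). Both were lower in every EMPA–Pre-AMI library than in any Sham library, as the rule for the largest falls required. Dll4, the Notch ligand of arteries and sprouts, was the only 1 of 13 Notch genes called, against 0.632% of all genes called lower. It was at 92.6, 58, 70.1 and 72.9 CPM in Sham and 43.6, 35.1, 32.2, 53.8 and 43.7 CPM in EMPA–Pre-AMI (-0.81 ± 0.22, adjusted p = 0.0476). Id1, a target of BMP signaling, was at 414, 564, 732 and 599 CPM in Sham and 488, 246, 312, 291 and 332 CPM in EMPA–Pre-AMI (-0.79 ± 0.18, adjusted p = 0.0162), with EMPA–Pre-AMI replicate 1 within the Sham range. Bmp4 was called higher, at 21.2, 27.1, 20.4 and 20.8 CPM in Sham and 35, 55.1, 20.4, 86.5 and 52.7 CPM in EMPA–Pre-AMI (1.15 ± 0.30, adjusted p = 0.0415), with EMPA–Pre-AMI replicate 3 within the Sham range. Id1 and Bmp4 were the only calls among 19 genes of transforming growth factor and BMP signaling, against 2.71% of all genes called. Cxcr4 had an adjusted p of 0.0756 without Sham replicate 3 and 0.0621 within sample-sheet list 2. Dll4 had an adjusted p of 0.0834 to 0.122 without Sham replicate 1, 3 or 4 or EMPA–Pre-AMI replicate 1, 2, 3 or 5, 0.0582 without robust estimation and 0.0543 within sample-sheet list 2. Id1 had an adjusted p of 0.055 to 0.0948 without Sham replicate 3 or 4 or EMPA–Pre-AMI replicate 4 and 0.0558 within sample-sheet list 2. Bmp4 had an adjusted p of 0.0501 to 0.151 without Sham replicate 1, 2, 3 or 4, EMPA–Pre-AMI replicate 2, 4 or 5 or Control-AMI replicate 2, 3 or 4, 0.0709 with only the 2 groups fitted, 0.0622 with the list number as a term and 0.311 within sample-sheet list 2.

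The rest of the largest falls covered several kinds of protein. Hlx, a homeobox factor, was at 74.9, 45.6, 67.6 and 45.1 CPM in Sham and 17.8, 16.2, 21.5, 25.9 and 15.6 CPM in EMPA–Pre-AMI (-1.59 ± 0.26, adjusted p = 0.000775). Prdm1, the repressor BLIMP1, was at 41 to 82.6 CPM in Sham and 13.8 to 31.8 CPM in EMPA–Pre-AMI (-1.59 ± 0.37, adjusted p = 0.0295), and Hic1, a repressor of the tumor suppressor kind, at 13.8 to 47.7 and 6.58 to 13.5 CPM (-1.59 ± 0.33, adjusted p = 0.00675). Tppp, a tubulin-binding protein, was at 85.5, 73.7, 55.5 and 95.8 CPM in Sham and 23.1, 25.9, 18.7, 16.1 and 32.3 CPM in EMPA–Pre-AMI (-1.73 ± 0.26, adjusted p = 0.00038), and Lratd2, of unknown function in ECs, at 72.7 to 116 and 20.4 to 38.4 CPM (-1.66 ± 0.22, adjusted p = 0.000136). The kinase Nuak1 was at 90 to 178 and 22.7 to 79.7 CPM (-1.58 ± 0.36, adjusted p = 0.0287), the small GTPase Arl4c at 17.6 to 35.4 and 4.79 to 11.8 CPM (-1.56 ± 0.37, adjusted p = 0.0203), and the serpin Serpinb6b at 10 to 15.7 and 1.24 to 5.95 CPM (-1.88 ± 0.47, adjusted p = 0.0286). Slfn3, of the Schlafen family, was at 29 to 50.1 and 6.8 to 22.1 CPM (-1.47 ± 0.29, adjusted p = 0.00426), and the transcript Gm15666 at 39.5 to 71.5 and 8.65 to 31.7 CPM (-1.46 ± 0.29, adjusted p = 0.00562). None of these genes overlapped between the groups, as the rule for the largest falls required. Prdm1 had an adjusted p of 0.0664 to 0.0988 without Sham replicate 1 or 3 or EMPA–Pre-AMI replicate 2, 4 or 5 and 0.0876 within sample-sheet list 2. Hic1 had an adjusted p of 0.0731 without Sham replicate 3 and 0.0866 within sample-sheet list 2. Nuak1 had an adjusted p of 0.0523 to 0.0814 without Sham replicate 2 or 4 or EMPA–Pre-AMI replicate 2, 4 or 5, 0.0814 without the filter, 0.0631 with only the 2 groups fitted and 0.111 within sample-sheet list 2. Arl4c had an adjusted p of 0.0571 to 0.0767 without Sham replicate 1 or 3 or EMPA–Pre-AMI replicate 4 or 5 and 0.214 within sample-sheet list 2. Serpinb6b had an adjusted p of 0.0582 to 0.115 without Sham replicate 2, 3 or 4 or EMPA–Pre-AMI replicate 1, 4 or 5 and 0.0933 within sample-sheet list 2. Slfn3 had an adjusted p of 0.0629 within sample-sheet list 2. Gm15666 had an adjusted p of 0.0742 within sample-sheet list 2.

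Interferon-stimulated genes gave 2 of 17 called lower, against 0.632% of all genes, and none higher, with a median of -0.17. Both encode GTPases that interferon gamma induces. Gbp4 was at 163, 131, 116 and 119 CPM in Sham and 79.7, 88.7, 93.9, 85.3 and 93.4 CPM in EMPA–Pre-AMI (-0.59 ± 0.16, adjusted p = 0.0456) and Igtp at 59.6, 85.6, 56.5 and 79.8 CPM in Sham and 38.8, 48.7, 37.3, 47 and 44.9 CPM in EMPA–Pre-AMI (-0.70 ± 0.19, adjusted p = 0.044). Neither overlapped between the groups. Gbp4 had an adjusted p of 0.0598 to 0.122 without Sham replicate 1, 2, 3 or 4 or EMPA–Pre-AMI replicate 1, 2, 3, 4 or 5, 0.0545 without the filter and 0.148 within sample-sheet list 2. Igtp had an adjusted p of 0.0506 to 0.169 without Sham replicate 2 or 4 or EMPA–Pre-AMI replicate 1, 2, 3, 4 or 5, 0.052 with the list number as a term and 0.0727 within sample-sheet list 2.

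In 8 lists of the barrier, the vessel wall, growth factor signaling and antigen presentation no gene was called. By edgeR none of 18 junction genes, 15 vasoactive mediators, 15 glycocalyx genes, 12 basement membrane genes, 12 interstitial matrix genes, 17 genes of VEGF, angiopoietin and apelin signaling, 13 of MHC class I presentation and 11 of the IGF axis passed the test. At an unadjusted p below 0.05 there were 6, 2, 0, 0, 1, 5, 3 and 0, in the same order, and DESeq2 called 1 of the junction genes, Esam (log2 0.68), 1 of the VEGF list, Aplnr (-1.85), and none of the others. By edgeR Esam was also called without EMPA–Pre-AMI replicate 2 or Control-AMI replicate 1 or 4, and Aplnr without EMPA–Pre-AMI replicate 3 or Control-AMI replicate 2 or 3. Their medians lay between -0.28 and 0.16. Cdh5, VE-cadherin, was at 611, 576, 747 and 646 CPM in Sham and 751, 490.4, 787, 648 and 666 CPM in EMPA–Pre-AMI (0.05 ± 0.17, adjusted p = 0.923), and Nos3, the endothelial nitric oxide synthase, at 166, 238, 203 and 215 CPM in Sham and 214, 174, 190, 229 and 218 CPM in EMPA–Pre-AMI (-0.00 ± 0.17, adjusted p = 0.994). The VEGF receptor Kdr was at 3757, 3568, 4506 and 4095 CPM in Sham and 2781, 1599, 3724, 2378 and 3131 CPM in EMPA–Pre-AMI, with EMPA–Pre-AMI replicate 3 within the Sham range, the other 4 below it and replicate 2 the lowest (-0.55 ± 0.20, adjusted p = 0.181). Fabp4, the fatty acid carrier of capillaries, was at 4685 to 5751 CPM in Sham and 3378 to 6333 CPM in EMPA–Pre-AMI (0.08 ± 0.18, adjusted p = 0.886), and Vwf, the von Willebrand factor of larger vessels, at 329 to 897 and 271 to 799.7 CPM (-0.45 ± 0.43, adjusted p = 0.704). A p above the threshold does not show that these levels are equal.

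Growth factor and matrix genes that the study names did not pass the edgeR test where given here. The study reports effects of EMPA on them relative to Control-AMI, by PCR of the ischemic left ventricle. Its supplement describes Vegfb and Timp1 as not significant in the sequencing. The values here are of sorted ECs against Sham and do not test those effects. Vegfb was at 10.6 to 21.5 CPM in Sham and 7.18 to 12.9 CPM in EMPA–Pre-AMI (-0.70 ± 0.30, adjusted p = 0.28), Igf1 at 21.4 to 31.4 and 11.3 to 30.8 CPM (-0.45 ± 0.39, adjusted p = 0.65), and Mmp2 at 10.2 to 38.5 and 7.35 to 20 CPM (-0.46 ± 0.65, adjusted p = 0.817). Timp1, the inhibitor of metalloproteinases induced by interleukin-6, was at 2.36, 0.475, 0.487 and 0.694 CPM in Sham and 5.92, 10.8, 0.566, 6.18 and 4.19 CPM in EMPA–Pre-AMI (2.43 ± 0.71, adjusted p = 0.07). EMPA–Pre-AMI replicate 3 was the only library of its group within the Sham range of Timp1. The gene was called by DESeq2 (adjusted p = 0.0292), without the filter (0.0258) and without Sham replicate 1 (0.0379) or EMPA–Pre-AMI replicate 3 (0.0157). The target of EMPA, Slc5a2, had no count in any of the 9 libraries, and its relative Slc5a1 had at most 2, so neither was tested. None of 8 tested sodium, proton and glucose carriers was called by edgeR or DESeq2, and 2 had an unadjusted p below 0.05.

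The Control-AMI libraries show the same operation without the drug, in ECs with more fibroblast RNA. Control-AMI replicates 2 and 3 are in sample-sheet list 2. Replicates 1 and 4 are in list 4, which holds no Sham or EMPA–Pre-AMI library of ECs. The comparisons with Control-AMI were not fitted with the list number as a term. A comparison with them shares the Sham or the EMPA–Pre-AMI libraries with that above, so values are only set side by side. Of the 283 called genes, 281 had a Control-AMI mean on the same side of the Sham mean. Of the 283, 171 were also called between Control-AMI and Sham, where 685 (6.56%) of all genes were called. Because the Sham libraries are shared, these counts are no independent support. Fkbp5 was at 124, 269, 166 and 179.9 CPM in Control-AMI, Mt1 at 394, 669, 751 and 550.3 CPM, Klf2 at 542, 349, 602 and 339.9 CPM and Bcl6b at 73.9, 60.7, 56.8 and 71 CPM. The Control-AMI libraries were all above the Sham range for Fkbp5 and Mt1 and all below it for Klf2 and Bcl6b. Against Sham the log2 differences of Control-AMI were 3.17 (adjusted p = 0.000275) for Fkbp5, 4.63 (adjusted p = 0.000824) for Mt1, -1.75 (adjusted p = 0.00223) for Klf2 and -1.76 (adjusted p = 0.000298) for Bcl6b.

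Of the 283 genes called against Sham, 11 also differed between EMPA–Pre-AMI and Control-AMI, a comparison in which 274 genes (2.63%) were called. The genes that follow are among those 11. Txnip was at 529, 764, 604 and 489 CPM in Control-AMI, below every EMPA–Pre-AMI library, and the difference of EMPA–Pre-AMI from Control-AMI was 0.75 (adjusted p = 0.0181). Rgcc, a cell cycle regulator enriched in capillaries, was at 34.8, 76.5, 85.7 and 61.8 CPM in Sham, 167, 108, 139, 151 and 155 CPM in EMPA–Pre-AMI and 74.8, 85.8, 62.8 and 68.5 CPM in Control-AMI, with differences of 1.15 ± 0.21 (adjusted p = 0.00183) from Sham and 0.98 (adjusted p = 0.0105) from Control-AMI. Every EMPA–Pre-AMI library of Rgcc was above the other 8 libraries. Sox17 was at 88, 113, 122 and 109 CPM in Control-AMI (0.77, adjusted p = 0.037 for EMPA–Pre-AMI against it), and Glt28d2, a glycosyltransferase gene, at 4.13, 4.75, 2.92 and 6.94 CPM in Sham, 39.8, 18.9, 21.5, 29.7 and 40.1 CPM in EMPA–Pre-AMI and 7.71, 17.5, 13.4 and 8.09 CPM in Control-AMI (2.69 ± 0.37, adjusted p = 0.000139 from Sham and 1.37, adjusted p = 0.0229 from Control-AMI). Tsc22d1, a relative of Tsc22d3, was at 221 to 309, 364 to 493 and 238 to 373 CPM in the 3 groups, with a difference of 0.86 ± 0.16 (adjusted p = 0.00232) from Sham and 0.59 (adjusted p = 0.0417) from Control-AMI. Cryab was at 37.9 to 44.8 CPM in Control-AMI and lower than that in every EMPA–Pre-AMI library (-1.04, adjusted p = 0.0207). Endothelial markers summed to 7627 to 10390 CPM in Control-AMI, below every EMPA–Pre-AMI library. Fibroblast markers summed to 3533 to 15100 CPM in Control-AMI and 792.1 to 1544 CPM in EMPA–Pre-AMI. Cardiomyocyte markers summed to 464 to 1625 and 331.9 to 818.1 CPM in the same order. The part of these differences in the levels of the genes above, Cryab among them, was not tested.

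A joint fit of all 38 libraries asked whether the change from Sham to EMPA–Pre-AMI differed in size between ECs and fibroblasts or cardiomyocytes. Unlike ECs and fibroblasts, the cardiomyocytes were collected by centrifugation and not sorted. The isolation protocol takes cardiomyocytes, fibroblasts and ECs from the same digested hearts, but the labels do not tie libraries to hearts, so the fit treated the populations as independent libraries. Of 12085 genes, 53 (0.439%) differed between ECs and fibroblasts and 64 (0.53%) between ECs and cardiomyocytes. Of the 283 genes called in ECs, 19 differed from fibroblasts, 34 from cardiomyocytes and 6 from both. The 283 were chosen by their change in the same EC libraries, so their shares cannot be set against those of all genes. The sign of the change was the same in fibroblasts for 218 of the 283 and in cardiomyocytes for 199. The share of equal signs over all genes of the fit was not counted, so no shared response is read from these counts. The 53 became 24 and 32 without Sham replicate 3 or EMPA–Pre-AMI replicate 4, and the 64 became 25, 26 and 30 without Sham replicate 2, 3 or 4 and 42 and 40 without EMPA–Pre-AMI replicate 2 or 4. Sample-sheet list and group are partly tied in the other populations. All cardiomyocyte Sham libraries are in list 4, and most cardiomyocyte EMPA–Pre-AMI libraries are in lists 2 and 3. Most fibroblast Sham libraries are in list 1, and most fibroblast EMPA–Pre-AMI libraries are in lists 3 and 4. With the list number as a term the count for cardiomyocytes fell and that for fibroblasts rose, as given below. Within this fit the share of genes called between EMPA–Pre-AMI and Sham was 1.55% in ECs, 5.34% in fibroblasts and 1.27% in cardiomyocytes. The changes of fibroblasts and cardiomyocytes are given beside those of ECs, as log2 fold changes with their SE.

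Fkbp5 changed by 3.68 ± 0.36 in ECs, 1.46 ± 0.32 in fibroblasts and 0.78 ± 0.38 in cardiomyocytes. The EC change was larger than the fibroblast change by 2.23 ± 0.46 (adjusted p = 0.016) and than the cardiomyocyte change by 2.90 ± 0.51 (adjusted p = 0.00371). Zbtb16 changed by 4.56 ± 0.47, 3.11 ± 0.43 and 0.55 ± 0.44 in the same order and differed from cardiomyocytes by 4.01 ± 0.63 (adjusted p = 0.00133). For Mt1 the change was 4.12 ± 0.43 in ECs and 4.13 ± 0.42 in fibroblasts, and the EC change exceeded that of cardiomyocytes (1.61 ± 0.38) by 2.52 ± 0.54 (adjusted p = 0.0237). Of the receptors that rose in ECs, Osmr changed by -1.48 ± 0.47 in cardiomyocytes and Il1r1 by -0.68 ± 0.29. The difference between ECs and cardiomyocytes was 2.59 ± 0.54 (adjusted p = 0.0164) for Osmr and 1.63 ± 0.39 (adjusted p = 0.038) for Il1r1. Txnrd1 differed from cardiomyocytes by 1.96 ± 0.40 (adjusted p = 0.0127), Bhlhe40 by 1.57 ± 0.38 (adjusted p = 0.038) and F10 by 4.83 ± 1.14 (adjusted p = 0.0379). For Fkbp5 the difference from fibroblasts had an adjusted p of 0.0579 without Sham replicate 3. For Mt1 the difference from cardiomyocytes had an adjusted p of 0.0512 to 0.0539 without Sham replicate 3 or 4, 0.0898 with the list number as a term and 0.0672 without the Control-AMI libraries. For Il1r1 the difference from cardiomyocytes had an adjusted p of 0.0505 to 0.0838 without Sham replicate 2, 3 or 4 or EMPA–Pre-AMI replicate 1, 2 or 3, 0.0542 with RLE factors, 0.107 with the list number as a term and 0.0678 without the Control-AMI libraries. For Txnrd1 the difference from cardiomyocytes had an adjusted p of 0.0571 with the list number as a term. For Bhlhe40 the difference from cardiomyocytes had an adjusted p of 0.0659 to 0.0949 without Sham replicate 2, 3 or 4 or EMPA–Pre-AMI replicate 2 or 4 and 0.0635 with RLE factors. For F10 the difference from cardiomyocytes had an adjusted p of 0.0598 to 0.0761 without Sham replicate 2, 3 or 4 or EMPA–Pre-AMI replicate 4, 0.0898 with the list number as a term and 0.0672 without the Control-AMI libraries.

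Lpl changed by 1.37 ± 0.20 in ECs and -0.26 ± 0.21 in fibroblasts, a difference of 1.63 ± 0.29 (adjusted p = 0.00334). Neu1, a lysosomal sialidase, was at 49, 46.1, 37.5 and 43 CPM in Sham and 79.1, 125, 75.8, 124 and 112 CPM in EMPA–Pre-AMI in ECs and changed by -0.80 ± 0.25 in fibroblasts, a difference of 2.03 ± 0.33 (adjusted p = 0.00334). Pth1r, the receptor of parathyroid hormone and its related peptide, was at 28.3, 29, 19 and 16 CPM in Sham and 103, 50.8, 60.5, 76 and 36.5 CPM in EMPA–Pre-AMI in ECs and differed from fibroblasts by 2.00 ± 0.40 (adjusted p = 0.00959) and from cardiomyocytes by 1.81 ± 0.44 (adjusted p = 0.0457). The zinc finger gene Zc3h6 was at 31.9, 14.7, 15.6 and 29.1 CPM in Sham and 80.2, 78.9, 95.6, 74.1 and 84.4 CPM in EMPA–Pre-AMI in ECs, and its change was larger than in fibroblasts by 1.62 ± 0.37 (adjusted p = 0.0301) and than in cardiomyocytes by 2.62 ± 0.41 (adjusted p = 0.000599). In ECs none of Lpl, Neu1, Pth1r and Zc3h6 overlapped between the groups. Mxd4, a partner of Max that opposes Myc, B4galt4, a galactosyltransferase, Cables1, a cyclin-dependent kinase partner, and Tsc22d1 also rose in ECs (0.65 ± 0.14, 0.85 ± 0.21, 1.54 ± 0.32 and 0.86 ± 0.16) and exceeded fibroblasts by 0.99 ± 0.21 (adjusted p = 0.016), 2.16 ± 0.43 (adjusted p = 0.00959), 2.95 ± 0.58 (adjusted p = 0.00886) and 1.17 ± 0.26 (adjusted p = 0.0247). Mxd4 had an adjusted p of 0.0658 without Sham replicate 4 and 0.0924 within sample-sheet list 2. B4galt4 had an adjusted p of 0.0508 to 0.129 without Sham replicate 1, 2 or 3 or EMPA–Pre-AMI replicate 1, 4 or 5 and 0.135 within sample-sheet list 2. Cables1 had an adjusted p of 0.0923 within sample-sheet list 2. For Zc3h6 the difference from fibroblasts had an adjusted p of 0.0535 to 0.0983 without Sham replicate 2 or 3 or EMPA–Pre-AMI replicate 3 and 0.0585 without the Control-AMI libraries. For Mxd4 the difference from fibroblasts had an adjusted p of 0.0745 without the filter. For Tsc22d1 the difference from fibroblasts had an adjusted p of 0.0551 to 0.0749 without Sham replicate 1, 3 or 4. For Pth1r the difference from cardiomyocytes had an adjusted p of 0.0505 to 0.0997 without Sham replicate 2, 3 or 4 or EMPA–Pre-AMI replicate 1, 3 or 4, 0.0637 with RLE factors, 0.161 with the list number as a term and 0.0843 without the Control-AMI libraries.

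In the other direction, Cish rose less in ECs than in fibroblasts: its change was 1.20 ± 0.29 in ECs and 3.44 ± 0.42 in fibroblasts, a difference of -2.24 ± 0.51 (adjusted p = 0.0318). Adamts9 changed by 0.85 ± 0.34 and 3.15 ± 0.42, a difference of -2.30 ± 0.52 (adjusted p = 0.0358). Zfp608, a zinc finger gene, fell in ECs, from 251, 166, 181 and 106 CPM to 62.4, 62.7, 92.7, 47.6 and 61.6 CPM, and differed from fibroblasts by -1.96 ± 0.37 (adjusted p = 0.00651). The EC change minus the cardiomyocyte change was -2.39 ± 0.51 (adjusted p = 0.0206) for Serpinb6b and -1.68 ± 0.37 (adjusted p = 0.0237) for Cryab. Etfa, of fatty acid oxidation, was at 20.6, 20.4, 26.3 and 28.5 CPM in Sham and 9.15, 8.11, 12.4, 11.7 and 7.18 CPM in EMPA–Pre-AMI in ECs and differed by -1.74 ± 0.32 (adjusted p = 0.00513). Mmut, of propionate breakdown, was at 32.4 to 51.8 CPM in Sham and 17.9 to 24.3 CPM in EMPA–Pre-AMI and differed by -1.59 ± 0.34 (adjusted p = 0.0206). Ckmt2, the creatine kinase of muscle mitochondria, was at 10, 9.98, 44.8 and 6.25 CPM in Sham and 1.61, 1.08, 2.26, 6.18 and 6.58 CPM in EMPA–Pre-AMI (-2.35 ± 0.61, adjusted p = 0.0422) and differed by -3.17 ± 0.72 (adjusted p = 0.0375). Sham replicate 3, the library with the highest cardiomyocyte markers, held the highest level of Ckmt2. The part of cardiomyocyte RNA in the falls of Etfa, Mmut and Ckmt2 was not tested. The transcript Gm43213 rose in ECs (1.24 ± 0.25, adjusted p = 0.00848) and differed from cardiomyocytes by 3.44 ± 0.65 (adjusted p = 0.00564). Etfa had an adjusted p of 0.0653 within sample-sheet list 2. Mmut had an adjusted p of 0.0518 to 0.0538 without Sham replicate 2 or 3. Ckmt2 had an adjusted p of 0.0523 to 0.389 without Sham replicate 3, EMPA–Pre-AMI replicate 1, 2, 3 or 4 or Control-AMI replicate 2 or 4, 0.0682 with only the 2 groups fitted and 0.0573 with the list number as a term. For Cish the difference from fibroblasts had an adjusted p of 0.0602 to 0.0688 without Sham replicate 3 or 4. For Adamts9 the difference from fibroblasts had an adjusted p of 0.0614 to 0.0887 without Sham replicate 1 or 3 or EMPA–Pre-AMI replicate 4 or 5 and 0.0779 without the filter. For Serpinb6b the difference from cardiomyocytes had an adjusted p of 0.062 without Sham replicate 2 and 0.198 with the list number as a term. For Cryab the difference from cardiomyocytes had an adjusted p of 0.054 to 0.066 without Sham replicate 2, 3 or 4 and 0.0757 with the list number as a term. For Etfa the difference from cardiomyocytes had an adjusted p of 0.0898 with the list number as a term. For Mmut the difference from cardiomyocytes had an adjusted p of 0.0534 to 0.062 without Sham replicate 2 or 3 and 0.0999 with the list number as a term. For Ckmt2 the difference from cardiomyocytes had an adjusted p of 0.0536 to 0.158 without Sham replicate 3 or EMPA–Pre-AMI replicate 1, 2 or 3, 0.0582 without the filter, 0.206 with the list number as a term and 0.106 without the Control-AMI libraries.

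**Figure D5:**
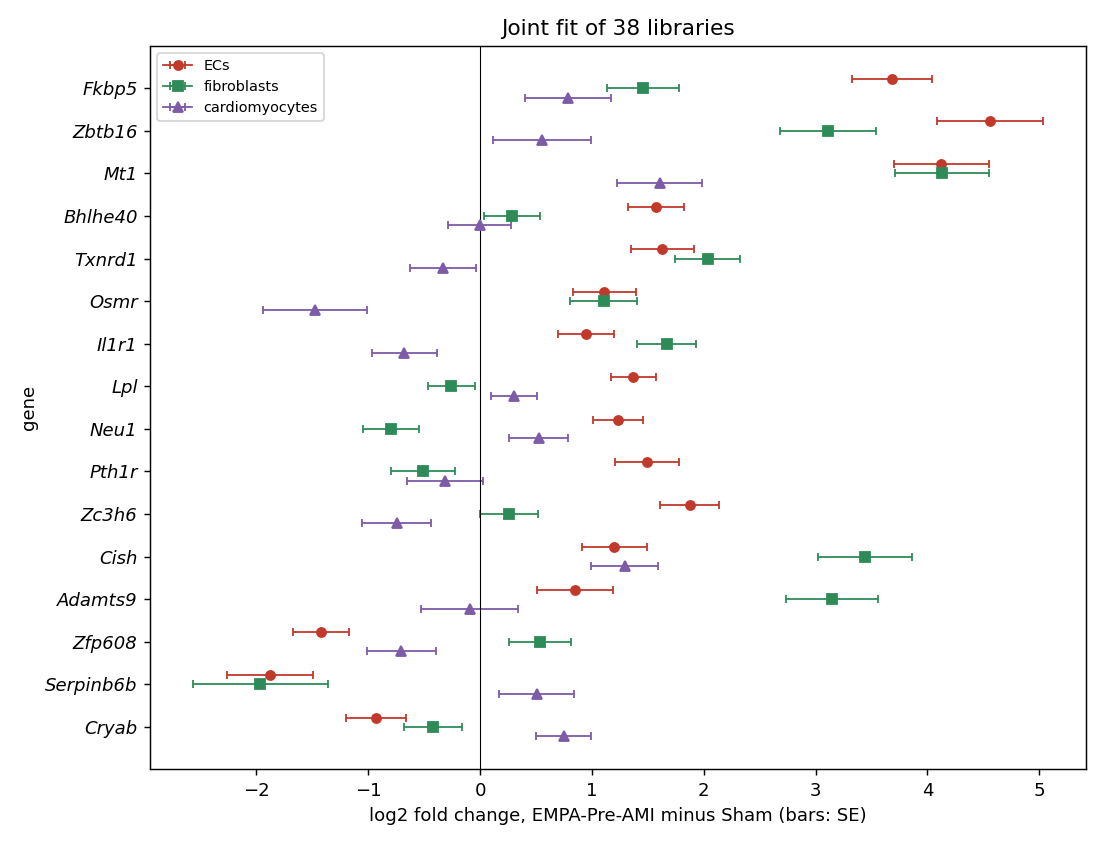
Log2 fold change of EMPA–Pre-AMI against Sham in ECs, fibroblasts and cardiomyocytes for 16 genes called in ECs that differed from one of the other populations, with bars for the SE, from the joint fit of 38 libraries. Zbtb16, Mt1 and Fkbp5 show the largest rises in ECs, and Cish and Adamts9 rose more in fibroblasts than in ECs.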

How the data were processed

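The authors sequenced 3′ mRNA libraries, trimmed the reads (cutadapt 2.8), quantified them with Salmon on GRCm39 with Ensembl genes and deposited the estimated counts, unnormalized, for 35682 genes. Of these values 4.55% were not whole, and all were rounded. The 13 EC libraries were fitted together in edgeR 4.0.16 under R 4.3.3 (filterByExpr with a minimum count of 10, TMM factors, glmQLFit with robust estimation, glmQLFTest), with 1 coefficient per group. A gene was called at a Benjamini-Hochberg adjusted p below 0.05. Differences between populations were interaction contrasts of the same steps on all 38 libraries. DESeq2 1.42.0, other filters and factors, single libraries left out, a replicate block and the sample-sheet list were alternatives. Lower bounds of a fold used 3 counts in the smallest Sham library. The fits were tested on simulated data.

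Genes named in the text came from these sets: the 12 largest rises and 12 largest falls among called genes without overlap and with 10 CPM or more, up to 6 called and the first 3 members of each list, cell type markers, genes the study names, and called genes with the 5 largest and 5 smallest differences between populations. Further genes called in ECs that also differed between populations or from Control-AMI, and list members called only in an alternative fit, were added after their values were seen. Members and lists were chosen with earlier results of these data known.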

Additional observations from a re-analysis of the deposited data

Results flagged for a closer look

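In 14 of 218 groups of 4 or 5 EC libraries looked at, over 109 of the genes named, 1 library stood far from the others of its group by Dixon's test. Chance flags about 1 in 20 groups. Ddit4 stood apart in both groups, at 407.9 CPM in Sham replicate 2 and 1452 CPM in EMPA–Pre-AMI replicate 1. EMPA–Pre-AMI replicate 2, the library with the highest lymphatic and venous markers, was high for Fos (1292 CPM), Thbs1 (90.83 CPM), Hhex (27.57 CPM) and Vwf (799.7 CPM). Sham replicate 1 was high for Vegfa (58.99 CPM) and Timp1 (2.36 CPM), and stood apart at 813.5 CPM for Atf4 and 94.97 CPM for Gm43213. Sham replicate 2 was high for Bmp4 (27.1 CPM) and Tsc22d1 (309 CPM). Sham replicate 3 held 44.77 CPM of Ckmt2, and EMPA–Pre-AMI replicate 4 held 68.58 CPM of Tmem252.

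The change from Sham to EMPA–Pre-AMI differed between cell populations for genes called in ECs, by the interaction term of the joint fit. Relative to cardiomyocytes the EC change was larger for Osmr (2.586), Il1r1 (1.628), Fkbp5 (2.898), Zbtb16 (4.008), Mt1 (2.52), Bhlhe40 (1.574), Txnrd1 (1.964), F10 (4.834), Pth1r (1.81), Zc3h6 (2.623) and Gm43213 (3.441), as differences of log2 fold changes. It was smaller or more negative for Cryab (-1.676), Serpinb6b (-2.386), Etfa (-1.74), Mmut (-1.59) and Ckmt2 (-3.167). Relative to fibroblasts it was larger for Fkbp5 (2.227), Lpl (1.627), Neu1 (2.03), Pth1r (2.002), Zc3h6 (1.617), Mxd4 (0.9944), Tsc22d1 (1.166), B4galt4 (2.156) and Cables1 (2.947). It was lower for Cish (-2.242), Adamts9 (-2.299) and Zfp608 (-1.958).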

How the results depend on the processing

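All 283 genes called in ECs kept their direction in every alternative fit that tested them. The count was 421 by DESeq2, 397 without the filter on low counts (19155 genes tested), 347 with only the compared groups fitted, 316 with the list number as a term, 191 within list 2 and 159 to 351 when 1 library was left out. A block for the replicate number gave 286 genes, of which 230 were among the 283, and same-numbered samples did not pair (correlations of their deviations from -0.06 to 0.21). The count of lower genes was 118 by DESeq2, 112 without the filter and 35 within list 2. Of 85 genes named and called, 34 kept the call in every alternative and 45 in every fit that left out 1 library. The difference from fibroblasts had 53 genes, 114 by DESeq2, 126 with the list number as a term and 24 to 63 without 1 library. That from cardiomyocytes had 64 genes, 212 by DESeq2, 16 with the list number, 27 without the Control-AMI libraries and 25 to 95 without 1 library. The causes were not tested.

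Some named genes that did not pass the test changed sign when 1 library was left out. Over those fits the log2 difference ran from -0.62 to 0.010 for Vcam1, -0.22 to 0.37 for Vegfa, -0.21 to 0.69 for Fos, -0.70 to 0.037 for Mmp2, -0.21 to 0.00012 for Erg, -0.014 to 0.14 for Cdh5 and -0.092 to 0.059 for Nos3. Erg was at 0.034 within list 2. At these depths 3 counts in a library correspond to 1.46 to 2.22 CPM before the correction for composition, so levels near 1 CPM, such as those of Cxcl10, Tmem252 and Timp1 in Sham, rest on few reads.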

Other observations

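Markers of vessel kinds, which belong to no comparison above, gave 1 or 2 calls per list, against 2.71% of all genes. The capillary list summed to 13640 to 15920 CPM in Sham and 11110 to 18090 CPM in EMPA–Pre-AMI, and 2 of 9 tested members were called in opposite directions, Rgcc higher (1.15 ± 0.21, adjusted p = 0.00183) and Meox2 lower (-0.92 ± 0.23, adjusted p = 0.0259). The arterial list summed to 1738 to 2273 and 1519 to 2432 CPM with 1 of 9 called, Sox17, and the venous list to 922.7 to 1830 and 877 to 2302 CPM with 1 of 8 called, Il1r1. DESeq2 also called Gpihbp1 in the capillary and Selp in the venous list. The groups overlapped in all these sums. EMPA–Pre-AMI replicate 2 held the lowest capillary and arterial and the highest venous sum of its group.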
